A study of Rattus norvegicus with 8 samples.

Results

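Heat shock proteins and J-domain cochaperones were followed across 4 groups of rat aortic smooth muscle cells. Members were all genes whose annotated symbol begins with Hsp (followed by a, b, d, e, h or a digit) or with Dnaja, Dnajb or Dnajc. The pattern matched 64 symbols, and 59 of them had a probe set with a mean over the 8 arrays above 4.81 log2, out of 11373 genes tested in all. A probe set is a group of short probes that report together on 1 transcript, and the brightest was used for each gene. Just inside this limit was Hspa12a, with a mean of 4.97, and just outside was Dnajc6, with a mean of 4.70. The symbols below the limit were Dnajb3, Dnajb7, Dnajc6, Hspa1l and Hspb3. Hspa8, Hspa1b and Hsp90aa1 were listed only on probe sets that carry several symbols, so no value is given for them.

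Heat shock proteins are chaperones that bind unfolded or partly folded proteins. HSP70 proteins hold and release their clients in a cycle of ATP binding and hydrolysis, J proteins (the Dnaj genes) bring clients and start the hydrolysis, and HSP110 proteins act as exchange factors that reset the cycle. HSP90 finishes the folding of many kinases and receptors, small heat shock proteins hold clients without ATP, and separate sets work in the endoplasmic reticulum and in mitochondria. In arterial smooth muscle, Hspb1 and Hspb6 are known for their link to actin and contraction.

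The cells were vascular smooth muscle cells (VSMC) obtained from male rats of the Sprague-Dawley strain by digestion of the thoracic aorta and grown in 10% serum for 2 passages. Every group was transfected 48 h before treatment. The siRNA was a non-targeting control (siNTC) in 2 groups and was directed against Giver (siGiver), a long non-coding RNA, in the other two. Each was then given 100 nM angiotensin II (Ang II), a peptide that constricts vessels and activates these cells, or phosphate-buffered saline (PBS) for 3 h. This gave siNTC PBS, siNTC Ang II, siGiver PBS and siGiver Ang II, with 2 arrays each. Whether a group's arrays stem from different cultures is not stated in the labels. The p-values therefore reflect array-to-array spread alone, and that spread may be technical. The annotation used named no probe set Giver, so the knockdown was not checked here. The study asked how silencing Giver changes gene expression with and without Ang II.

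The arrays of each group correlated at 0.998 over all probe sets, and array medians lay between 6.15 and 6.19 log2. All 6 smooth muscle markers (Acta2, Tagln, Myh11, Cnn1, Smtn and Lmod1) were above the limit. None of 5 endothelial markers was above it on a probe set of its own, and of 5 macrophage and leukocyte markers Cd68 and Cd14 were. All 5 fibroblast markers (Dcn, Lum, Pdgfra, Scara5 and Dpt) were above it. Values below are log2 values, and levels are compared across arrays within a probe set, never between genes.

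Promoter sequences are shown for members whose start lies next to a known stress element, because these elements are the textbook route by which chaperone genes are switched on together. Windows of 250 bases before to 50 after the start came from RefSeq (rat build GRCr8) and were held for 48 of the 59 members. The stress element of the endoplasmic reticulum, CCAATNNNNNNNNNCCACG, was searched on both strands and was found in 3 members, Hspa5, Hsp90b1 and Dnajc3 (6.25%), and in 22 of 33469 windows in all (0.0657%). Below, capitals mark this element, and each stretch runs 5′ to 3′ on the gene's strand.
Hspa5 (chr3:38452956-38453015, + strand): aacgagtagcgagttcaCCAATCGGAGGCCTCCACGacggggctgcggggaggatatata
Hsp90b1 (chr7:23012344-23012473, - strand): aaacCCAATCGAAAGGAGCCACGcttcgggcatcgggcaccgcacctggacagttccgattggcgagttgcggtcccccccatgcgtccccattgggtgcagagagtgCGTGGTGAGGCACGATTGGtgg
Dnajc3 (chr15:102432517-102432566, + strand): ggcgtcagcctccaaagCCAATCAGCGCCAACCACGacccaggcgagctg
The Hsp90b1 stretch holds the element in both orientations.

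The heat shock element was searched on both strands as 3 alternating units (GAANNTTCNNGAA or TTCNNGAANNTTC) and as 2 units (GAANNTTC or TTCNNGAA), and the longer form always contains the shorter. The 3-unit form was found in 4 members, Dnaja1, Hspd1, Hspe1 and Hsph1 (8.33%), and in 267 of 33469 windows (0.798%). The 2-unit form was found in 14 members (29.2%) and in 5305 windows (15.9%). Capitals below mark the units in members that the results describe.
Hsph1 (chr12:10427308-10427367, + strand): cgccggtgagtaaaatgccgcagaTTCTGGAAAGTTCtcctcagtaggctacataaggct
Hspe1 (chr9:64084247-64084306, + strand): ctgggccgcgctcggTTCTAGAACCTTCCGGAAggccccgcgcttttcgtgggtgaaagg
Dnajb1 (chr19:41431142-41431201, - strand): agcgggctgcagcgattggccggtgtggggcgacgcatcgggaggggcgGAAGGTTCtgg
Hspb1 (chr12:26432392-26432441, - strand): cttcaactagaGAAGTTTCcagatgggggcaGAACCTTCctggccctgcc
Hspd1 and Hspe1, which encode the mitochondrial chaperonin and its lid, share the same marked bases (chr9:64084262-64084279), since their windows overlap. The Hspa1a window held no exact match to any of these elements. Inexact forms, and bases outside the windows, were not searched. A match describes the letters in the window and was not tested as a binding site.

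With Ang II in siNTC cells, 2 members rose and 0 fell by limma at an adjusted p under 0.05. They were Hspa1a, the stress-inducible cytosolic HSP70, and Dnajb4, a class B J protein of the cytosol. Among all genes, 3.97% rose and 2.17% fell in this comparison, so the 3.39% of members that rose was close to the background. At an unadjusted p under 0.05, 12 members were higher and 1 was lower. The share of all genes at this unadjusted cutoff was not computed, so such counts, here and below, cannot be set against a background. The median difference of the 59 members was 0.03, against 0.01 over all genes, and the range was -0.25 to 0.34.

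With Ang II in siGiver cells, 10 members rose and 1 fell. The risers were the HSP70 genes Hspa1a and Hspa5, the HSP110 genes Hspa4l, Hspa4 and Hsph1, the J proteins Dnajb5, Dnajb1, Dnajb4 and Dnaja1, and the small heat shock protein Hspb1. The faller was Hspb6, another small heat shock protein. Of all genes, 9.12% rose and 7.19% fell, while 16.9% of the members rose and 1.69% fell. The median was 0.05 for the members and -0.03 over all genes, and the range of the members was -0.20 to 0.87.

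Cell type markers moved with Ang II as well. In siNTC cells, 2 of 6 smooth muscle markers (Acta2 and Myh11) and 4 of 5 fibroblast markers fell, and the summed log2 value of the fibroblast list was 38.8 to 38.9 in PBS and 37.1 to 37.7 with Ang II. In siGiver cells, 2 smooth muscle markers (Cnn1 and Smtn) rose and 1 fibroblast marker (Pdgfra) fell, and the fibroblast sum was 39.3 to 39.4 in PBS and 38.6 to 38.8 with Ang II. The part of these markers in the Ang II results on chaperones was not tested.

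Hspa1a had the largest rise of the members in both arms. Its values were 8.77 and 8.90 in siNTC PBS, 9.18 and 9.17 in siNTC Ang II, 8.80 and 8.94 in siGiver PBS, and 9.72 and 9.74 in siGiver Ang II. The PBS arrays of both arms overlapped, the siNTC Ang II arrays lay above them, and the siGiver Ang II arrays lay above every other array. The Ang II difference was 0.34 ± 0.06 (SE of the fit) in siNTC cells (1.27-fold, adjusted p = 0.0242) and 0.87 ± 0.06 in siGiver cells (1.82-fold, adjusted p = 0.000153). The test of the difference between these effects, called the interaction here, gave 0.52 ± 0.09 (adjusted p = 0.0172). Hspa1b is nearly identical to Hspa1a, so the probe set may read both genes.

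The rise of Hspa1a in siNTC cells no longer passed without siNTC PBS replicate 1 (adjusted p = 0.135), without siNTC Ang II replicate 1 (0.104) or without siNTC Ang II replicate 2 (0.113). Its interaction passed without siNTC PBS replicate 1 or siGiver PBS replicate 2 and missed the threshold with any other array left out (adjusted p between 0.0523 and 0.0622). The rise in siGiver cells passed with every array left out.

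Hspa5 encodes BiP, the HSP70 of the endoplasmic reticulum and a textbook marker of stress there. It measured 11.79 and 11.78 in siNTC PBS, 11.94 and 11.87 in siNTC Ang II, 11.76 and 11.84 in siGiver PBS, and 12.26 and 12.23 in siGiver Ang II. The siGiver Ang II arrays stood above the other 6, among which the PBS arrays of both arms overlapped. The rise in siGiver cells was 0.44 ± 0.05 (1.36-fold, adjusted p = 0.00122), and the difference in siNTC cells was 0.12 ± 0.05 (adjusted p = 0.218). The interaction was 0.33 ± 0.07 (adjusted p = 0.0392), and it missed the threshold with any single array left out (adjusted p between 0.0532 and 0.125), without the filter on dim probe sets (0.074) and with every probe set on its own (0.0597). With the replicate number as a block in the limma fit, the Hspa5 interaction missed as well (adjusted p = 0.067). Hsp90b1 and Dnajc3, whose windows hold the same element as Hspa5, had Ang II differences of 0.06 and 0.01 in siGiver cells, and neither passed.

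**Figure D1:**
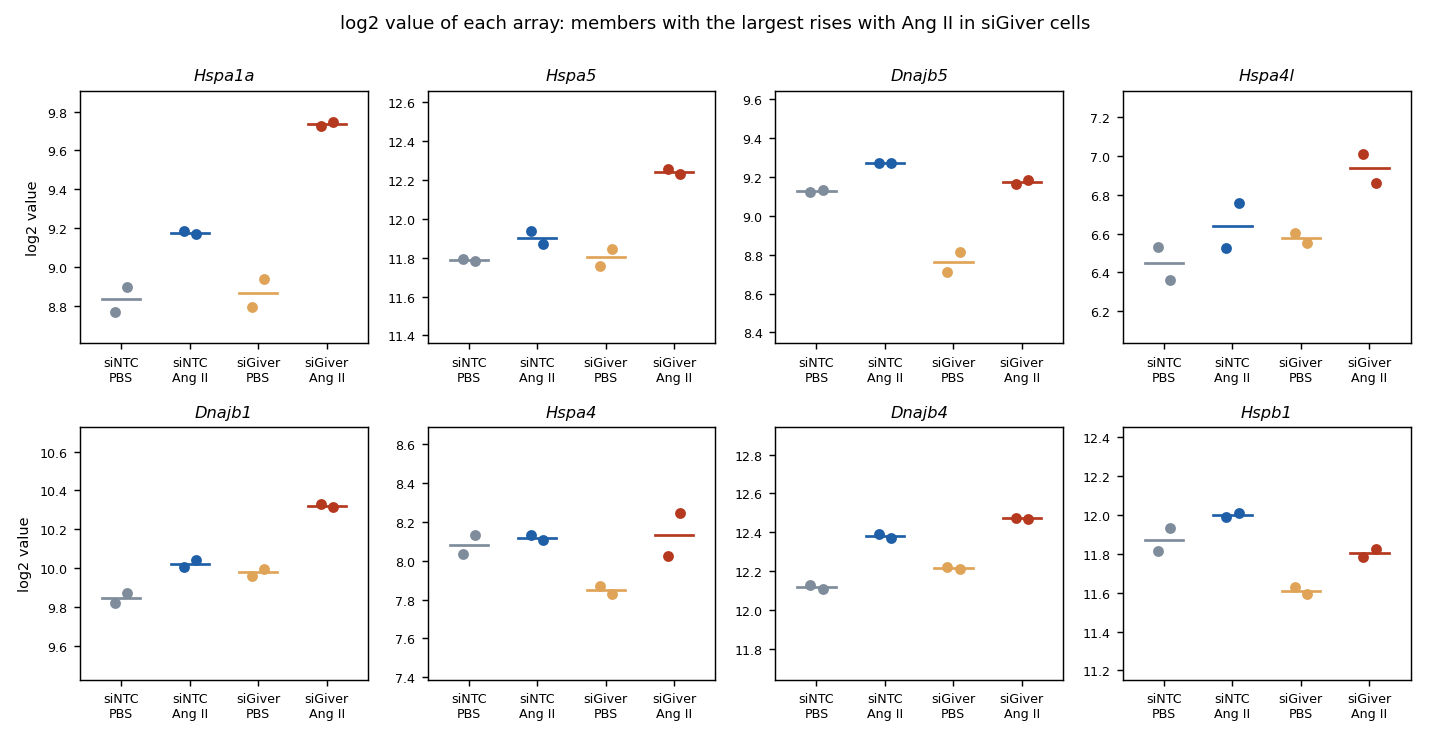
Each panel shows 1 member, with a point for each of the 8 arrays and a line at the mean of the 2 arrays of a group; the vertical axis is the log2 value and spans the same width in every panel. The siGiver Ang II arrays of Hspa1a (9.72 and 9.74) and Hspa5 (12.26 and 12.23) lie above every other array of the gene, while those of Dnajb5 lie within the range of the siNTC arrays.

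The cytosolic and nuclear class A and B J proteins, which start the HSP70 cycle, held 9 members. With Ang II, 1 of them rose in siNTC cells (11.1%, against 3.97% of all genes) and 4 rose in siGiver cells (44.4%, against 9.12%). Dnajb1, the main stress-inducible J protein, had 9.82 and 9.87 in siNTC PBS, 10.00 and 10.04 in siNTC Ang II, 9.96 and 9.99 in siGiver PBS, and 10.33 and 10.31 in siGiver Ang II. The siGiver Ang II arrays were the highest and the siNTC PBS arrays the lowest. Its rise was 0.34 ± 0.04 in siGiver cells (1.27-fold, adjusted p = 0.00223), and the difference of 0.18 ± 0.04 in siNTC cells did not pass (adjusted p = 0.0596). A dimmer probe set of Dnajb1 gave 0.41 in siGiver cells, which passed over probe sets as well.

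Dnajb4, a close relative of Dnajb1, moved by like amounts in both arms. It had 12.13 and 12.11 in siNTC PBS, 12.39 and 12.37 in siNTC Ang II, 12.22 and 12.21 in siGiver PBS, and 12.47 and 12.47 in siGiver Ang II. The Ang II arrays of each arm lay above the PBS arrays of both arms. The rise was 0.26 ± 0.04 in siNTC cells (1.20-fold, adjusted p = 0.0114) and 0.25 ± 0.04 in siGiver cells (1.19-fold, adjusted p = 0.00633), with an interaction of -0.01 ± 0.06 (adjusted p = 0.941). The rise in siNTC cells missed the threshold without any of the 4 siNTC arrays: without PBS replicate 1 or 2 (adjusted p = 0.0573 for both), Ang II replicate 1 (0.0713) or Ang II replicate 2 (0.0655).

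Dnajb5, another class B J protein, followed a different order. It had 9.12 and 9.13 in siNTC PBS, 9.27 and 9.27 in siNTC Ang II, 8.71 and 8.81 in siGiver PBS, and 9.16 and 9.19 in siGiver Ang II. The siGiver PBS arrays were the lowest, and the siGiver Ang II arrays lay between the siNTC groups. The rise with Ang II in siGiver cells was 0.41 ± 0.05 (1.33-fold, adjusted p = 0.00149), and the difference from siNTC cells in PBS was -0.37 ± 0.05 (adjusted p = 0.00105). These comparisons share the siGiver PBS arrays. The difference with Ang II in siNTC cells was 0.14 ± 0.05 (adjusted p = 0.131), and the interaction was 0.27 ± 0.07 (adjusted p = 0.0648). Both dimmer probe sets of Dnajb5 rose with Ang II in siGiver cells, by 0.50 and 0.40.

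Dnaja1, a class A J protein of the cytosol, had 11.24 and 11.28 in siGiver PBS and 11.42 and 11.48 in siGiver Ang II. The rise of 0.19 ± 0.05 (adjusted p = 0.0291) missed the threshold without the filter on dim probe sets (0.0534). It also missed it without either siNTC Ang II array (0.0503 for both), siGiver PBS replicate 1 (0.139) or 2 (0.0677), or siGiver Ang II replicate 1 (0.0622) or 2 (0.148).

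The exchange factors of the HSP110 family, Hspa4l, Hspa4 and Hsph1, also rose in siGiver cells. Hspa4l had 6.60 and 6.55 in siGiver PBS and 7.01 and 6.86 in siGiver Ang II, a rise of 0.36 ± 0.09 (1.28-fold, adjusted p = 0.0402). Hspa4 had 7.87 and 7.83 in siGiver PBS and 8.02 and 8.24 in siGiver Ang II, a rise of 0.28 ± 0.08 (adjusted p = 0.0419). The arrays did not overlap between these groups for either gene, but the Ang II values of Hspa4 spanned the siNTC PBS values of 8.03 and 8.13. Hsph1, the inducible member of the family, had 11.01 and 11.03 in siGiver Ang II against 10.81 to 10.87 on the other 6 arrays, a rise of 0.17 ± 0.04 (adjusted p = 0.0398). Its dimmer probe set rose by 0.32.

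These 3 calls were near the threshold. Without the filter on dim probe sets the adjusted p was 0.0674 for Hspa4l, 0.0702 for Hspa4 and 0.0699 for Hsph1. With the replicate number as a block in the limma fit it was 0.062, 0.0506 and 0.0596. Hsph1 was also lost with cyclic loess (0.0515) and with every probe set on its own (0.0537). Hspa4l also missed without siGiver PBS replicate 1 (0.113) or 2 (0.138) or siGiver Ang II replicate 1 (0.174) or 2 (0.068). Hspa4 missed with any array left out other than siGiver Ang II replicate 1 (up to 0.167), and Hsph1 with any of the 8 left out (up to 0.16).

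The remaining HSP70 members of the cytosol (Hspa2, Hspa12a, Hspa12b and Hspa14) had Ang II differences between -0.20 and 0.12 in siGiver cells, and none passed. Hsp90ab1, the constitutive cytosolic HSP90, read 12.96 and 12.99 in siNTC PBS, 12.95 and 13.01 in siNTC Ang II, 13.04 and 13.07 in siGiver PBS, and 13.04 and 12.92 in siGiver Ang II. All 4 groups lay within a narrow band, and no comparison passed for this gene.

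Small heat shock proteins, which hold clients without ATP, had 6 members above the limit. Hspb1 (Hsp27) had 11.81 and 11.93 in siNTC PBS, 11.99 and 12.01 in siNTC Ang II, 11.63 and 11.59 in siGiver PBS, and 11.79 and 11.82 in siGiver Ang II. In siGiver cells it rose by 0.20 ± 0.05 (adjusted p = 0.0441), and its Ang II arrays there overlapped the siNTC PBS arrays. Hspb6 (Hsp20) had 8.38 and 8.41 in siGiver Ang II against 8.53 to 8.59 on the other 6 arrays, a fall of 0.17 ± 0.05 on the log2 scale (adjusted p = 0.0475). Hspb7, of the same family, had -0.19 ± 0.06 and did not pass (adjusted p = 0.0576).

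Both of these calls were lost in alternatives. Without the filter the adjusted p was 0.0748 for Hspb1 and 0.0804 for Hspb6, and Hspb6 gave 0.0956 with array medians subtracted. In the limma fit with the replicate number as a block it was 0.0573 and 0.0713, and with every probe set on its own 0.0558 and 0.0623. Hspb6 missed with any array left out (up to 0.199). Hspb1 missed without any of the siNTC Ang II, siGiver PBS or siGiver Ang II arrays (0.0686 to 0.176).

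Of 12 chaperones and J proteins of the endoplasmic reticulum, Hspa5 was the 1 member that rose with Ang II in siGiver cells (8.33%, against 9.12% of all genes). In siNTC cells limma called 0 of them (4 at an unadjusted p under 0.05: Dnajb11, Dnajc3 and Hspa5 higher, Dnajc10 lower). Among 9 mitochondrial members, which include the HSP70 Hspa9 and the chaperonin pair Hspd1 and Hspe1, limma called 0 in either Ang II comparison. At an unadjusted p under 0.05 there were 0 in siNTC cells, and in siGiver cells Hspa9 was higher and Dnajc30 lower. Hspa9 had 11.20 and 11.25 in siGiver PBS and 11.36 and 11.40 in siGiver Ang II, a difference of 0.15 ± 0.04 (adjusted p = 0.0558). A dimmer probe set of Hspa9 gave 0.23 and passed over probe sets, while its far dimmer ones gave 0.35 and -0.24 and did not pass. Hspd1 and Hspe1 differed by 0.08 and -0.02 in siGiver cells, and neither passed. Limma also called 0 of 12 other class C J proteins in either Ang II comparison, with 2 at an unadjusted p under 0.05 in siNTC cells and 1 in siGiver cells. Among all genes, 3.97% rose and 2.17% fell in siNTC cells, and 9.12% rose and 7.19% fell in siGiver cells. In groups of 9 or 12 genes, counts of 0 or 1 lie near these shares.

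**Figure D2:**
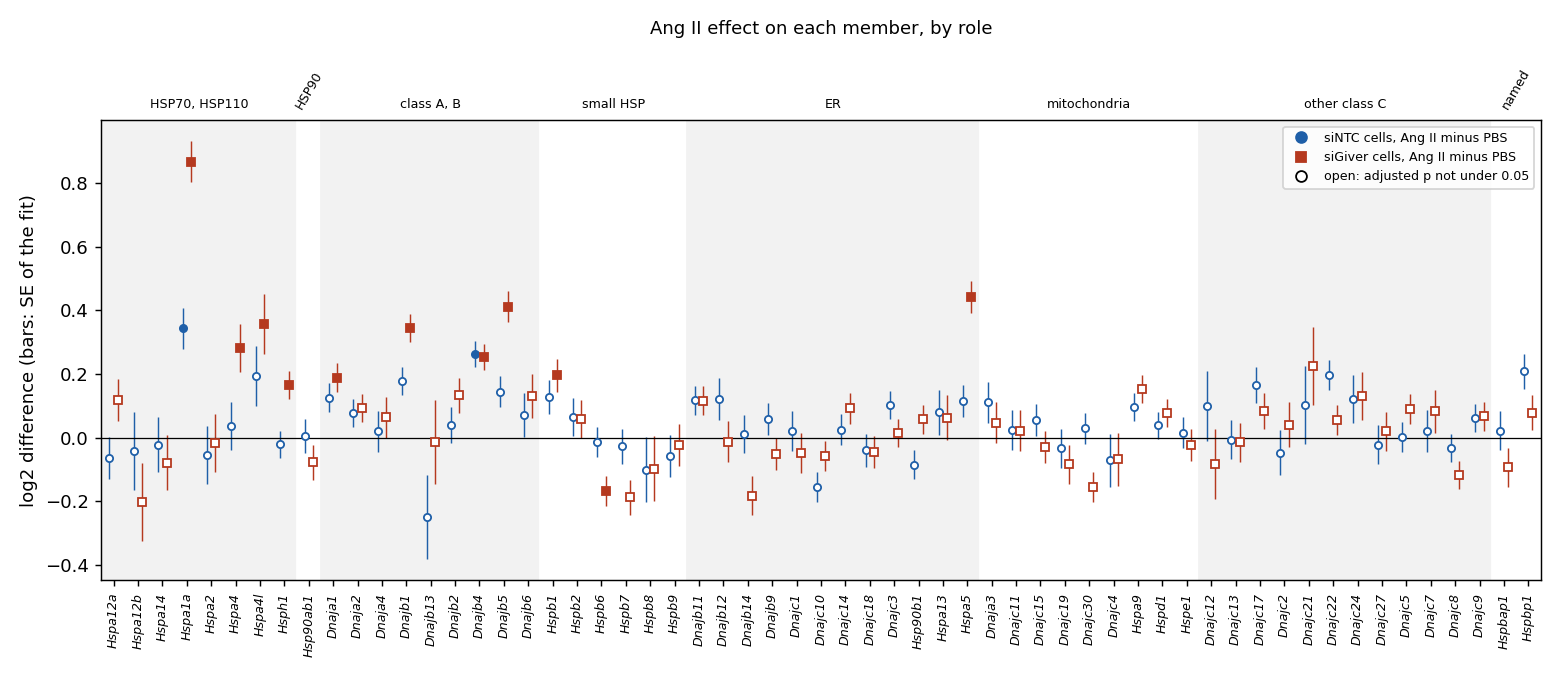
Points show the Ang II minus PBS difference on the log2 scale for each of the 59 members, in siNTC cells (blue circles) and siGiver cells (red squares), with bars of 1 SE of the fit, and filled points have an adjusted p under 0.05. The filled points above 0 sit among the HSP70 and HSP110, class A and B and small heat shock protein groups, with Hspa5 alone among the 12 members of the endoplasmic reticulum and none among the 9 of mitochondria. The share for the endoplasmic reticulum in siGiver cells, 8.33%, was close to the 9.12% of all genes that rose.

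Across all members, 2 had an interaction past the threshold (Hspa1a and Hspa5, both higher) and 0 were lower by limma, against 3.35% higher and 2.87% lower among all genes. The share of members, 3.39%, was close to the background. At an unadjusted p under 0.05, 5 members were higher and 2 lower. The median interaction was 0.0031 for the members, with a range of -0.19 to 0.52, and -0.0218 over all genes. For the other members that passed in siGiver cells and not in siNTC cells, the effects were therefore not shown to differ between the arms.

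Between the siRNA arms in PBS, 5 members were higher and 9 lower in siGiver cells. The higher ones were Dnajc9, Dnajc18, Dnajc8, Dnajc30 and Dnajc3, and the lower ones were Dnajc24, Dnajb2, Dnajb5, Hspb1, Dnajb9, Hspa4, Dnajb11, Hsp90b1 and Dnajc5. Of all genes, 16% were higher and 19.1% lower, so the 8.47% and 15.3% of members were below the background in both directions. The median difference was 0.0049 for the members and -0.0047 over all genes, and the members ranged from -0.61 to 0.42. With cyclic loess, another scaling of the arrays, the split became 10 higher and 6 lower.

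With Ang II, 12 members were higher and 9 lower in siGiver cells. Hspa1a, Dnajc9, Hspa5, Dnajc18, Hspa2, Dnajb1, Hspa4l, Dnajc10, Hsph1, Hspa12a, Dnajc8 and Dnaja2 were higher. Dnajc24, Dnajb9, Dnajb2, Dnajb12, Dnajc22, Dnajc1, Hspb1, Dnajb11 and Hspb6 were lower. Of all genes 19.5% were higher and 24.8% lower, against 20.3% and 15.3% of the members. The member median was -0.0032, the all-gene median was -0.0259, and the members ranged from -0.60 to 0.56.

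Markers of smooth muscle moved with the siRNA. Their summed log2 value over the 6 genes was 63.7 to 64.1 in siNTC PBS, 63.4 to 63.6 in siNTC Ang II, 65.9 in siGiver PBS and 66.7 in siGiver Ang II, and 5 of 6 were higher in siGiver cells in both treatments. The 5 fibroblast markers summed to between 37.1 and 39.4 over the groups, with 3 higher in siGiver cells under Ang II. Cd68 and Cd14 summed to between 12.5 and 14.0, with both lower in siGiver cells under Ang II. Fewer cells of a type and less RNA per cell cannot be told apart in such samples, and the part of these markers in the chaperone differences was not tested.

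Class C J proteins carry a J domain but vary in the rest of the protein and in task, and among the 59 members Dnajc24 had the largest difference between the arms in size in both treatments. This gene, a J protein of diphthamide synthesis, had 7.39 and 7.48 in siNTC PBS, 7.55 and 7.57 in siNTC Ang II, 6.74 and 6.91 in siGiver PBS, and 6.88 and 7.03 in siGiver Ang II. Every siGiver array was below every siNTC array. The difference was -0.61 ± 0.07 in PBS (1.53-fold lower, adjusted p = 0.000732) and -0.60 ± 0.07 with Ang II (1.52-fold lower, adjusted p = 0.00053).

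Dnajc9, which chaperones histones, was higher in siGiver cells by like amounts in both treatments. It had 8.60 and 8.67 in siNTC PBS, 8.71 and 8.69 in siNTC Ang II, 9.05 and 9.06 in siGiver PBS, and 9.12 and 9.12 in siGiver Ang II. No siGiver array overlapped a siNTC array, and the difference was 0.42 ± 0.04 in PBS (1.33-fold, adjusted p = 0.000429) and 0.42 ± 0.04 with Ang II (1.34-fold, adjusted p = 0.000268). Dnajc8, a J protein of the splicing machinery, had 9.68 and 9.72 in siNTC PBS, 9.67 and 9.66 in siNTC Ang II, 9.94 and 9.98 in siGiver PBS, and 9.82 and 9.86 in siGiver Ang II. It was higher in siGiver cells by 0.26 ± 0.04 in PBS (adjusted p = 0.00309) and by 0.18 ± 0.04 with Ang II (adjusted p = 0.0131). The Ang II call for Dnajc8 was lost without siNTC Ang II replicate 2 (0.0645) or siGiver Ang II replicate 2 (0.0763).

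Dnajc5, the cysteine string protein of secretory vesicles, was lower in siGiver cells in PBS by -0.16 ± 0.05 (adjusted p = 0.0301), with 9.98 and 9.91 in siNTC cells and 9.79 and 9.77 in siGiver cells. The highest adjusted p of this call over the alternatives was 0.126, and it was lost without the filter, with the mean of its probe sets, with cyclic loess, and without siNTC PBS replicate 1 or either siGiver PBS array. A dimmer probe set of Dnajc5 was also lower in PBS (-0.23), and rose with Ang II in siGiver cells (0.37), where the brightest did not pass. The dimmest of Dnajc5 gave 0.04 in PBS and 0.19 with Ang II in siGiver cells, and passed in neither. Dnajc22, a membrane J protein, had 7.78 and 7.84 in siNTC Ang II and 7.57 and 7.50 in siGiver Ang II. The difference of -0.28 ± 0.05 with Ang II passed (adjusted p = 0.00241), and that of -0.14 ± 0.05 in PBS did not (adjusted p = 0.059).

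In the endoplasmic reticulum group, members went both ways. Dnajb9, a J protein of the lumen that works with BiP, had 9.65 and 9.74 in siNTC PBS, 9.77 and 9.74 in siNTC Ang II, 9.39 and 9.47 in siGiver PBS, and 9.39 and 9.38 in siGiver Ang II. All siGiver arrays lay below all siNTC arrays, and the difference was -0.26 ± 0.05 in PBS (adjusted p = 0.00572) and -0.37 ± 0.05 with Ang II (1.29-fold lower, adjusted p = 0.000845). Dnajb11, another lumenal J protein, had 9.97 and 9.98 in siNTC PBS, 10.07 and 10.11 in siNTC Ang II, 9.82 and 9.75 in siGiver PBS, and 9.89 and 9.92 in siGiver Ang II. It was lower by -0.19 ± 0.05 in both treatments (adjusted p = 0.0163 in PBS and 0.0122 with Ang II).

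Dnajc18, a membrane J protein of the endoplasmic reticulum, was higher in siGiver cells. It had 7.55 and 7.67 in siNTC PBS, 7.58 and 7.55 in siNTC Ang II, 7.93 and 7.93 in siGiver PBS, and 7.88 and 7.89 in siGiver Ang II. The arms did not overlap, with differences of 0.32 ± 0.05 in PBS (adjusted p = 0.00239) and 0.32 ± 0.05 with Ang II (1.24-fold, adjusted p = 0.00185). Its relative Dnajb12, which faces the cytosol from the same membrane, had 7.67 and 7.55 in siNTC Ang II and 7.39 and 7.25 in siGiver Ang II, and was lower with Ang II by -0.28 ± 0.06 (adjusted p = 0.00924). In PBS the Dnajb12 difference of -0.15 ± 0.06 did not pass (adjusted p = 0.115).

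In PBS the genes that share the stress element did not share a direction between the arms, and with Ang II only Hspa5 of them passed. Hspa5 differed by 0.01 ± 0.05 in PBS (adjusted p = 0.856) and by 0.34 ± 0.05 with Ang II (1.27-fold higher, adjusted p = 0.00119). Dnajc3, an inhibitor of the stress kinase PERK, had 9.45 and 9.48 in siNTC PBS and 9.67 and 9.67 in siGiver PBS, and was higher by 0.21 ± 0.04 in PBS (adjusted p = 0.00882). With Ang II its difference of 0.12 ± 0.04 did not pass (adjusted p = 0.0641). Hsp90b1 (GRP94), the HSP90 of this compartment, had 12.31 and 12.27 in siNTC PBS and 12.14 and 12.09 in siGiver PBS, and was lower by -0.17 ± 0.05 in PBS (adjusted p = 0.0221). With Ang II the Hsp90b1 difference of -0.03 ± 0.05 did not pass in the limma fit (adjusted p = 0.648).

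Dnajc10, a disulfide reductase with a J domain, was higher with Ang II by 0.19 ± 0.05 (adjusted p = 0.013), and its other probe set by 0.30. Dnajc1, a J protein of the membrane, was lower by -0.20 ± 0.06 (adjusted p = 0.035), a call that the mean of its 3 probe sets did not give (adjusted p = 0.318) and that was also lost without the filter (0.0564) and with array medians subtracted (0.0629).

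Several of these calls were lost when 1 array was left out, where fewer samples enter the fit. Some of the differences did not shrink in such fits, so a loss need not mean that the call rested on that array. In PBS, Dnajb11 missed without siNTC PBS replicate 1 (0.0513) or 2 (0.0647) or siGiver PBS replicate 2 (0.0896). Hsp90b1 missed with cyclic loess (0.0504) and without siNTC PBS replicate 1 (0.0912) or siGiver PBS replicate 1 (0.0521) or 2 (0.106). With Ang II, Dnajb11 missed without siNTC Ang II replicate 2 (0.0687) or siGiver Ang II replicate 1 (0.0686), and Dnajb12 without siNTC Ang II replicate 1 (0.0605) or siGiver Ang II replicate 2 (0.0588). Dnajc10 missed without siNTC Ang II replicate 1 (0.0512) or 2 (0.0597) or siGiver Ang II replicate 2 (0.0858), and Dnajc1 without any array other than the siNTC PBS arrays (up to 0.122).

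**Figure D3:**
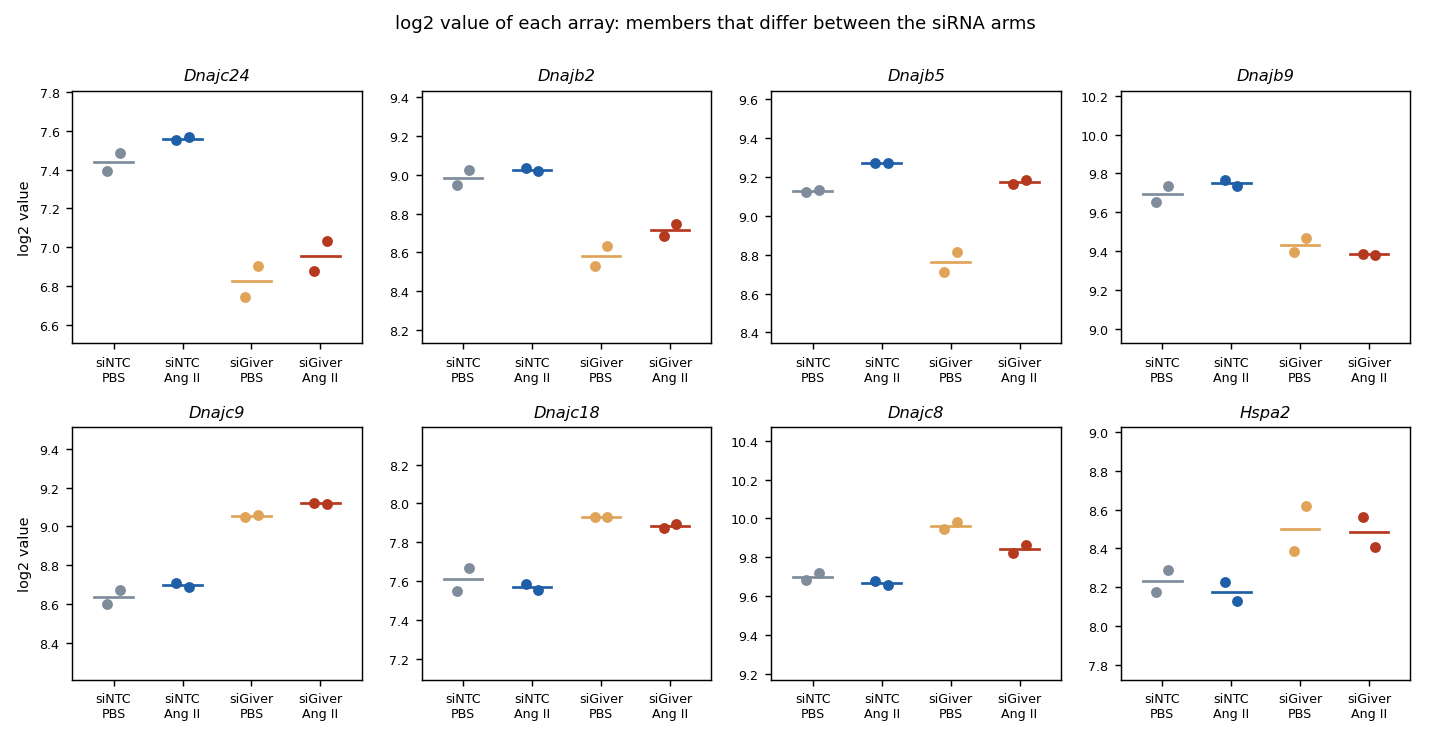
Each panel shows 1 member, with a point for each of the 8 arrays and a line at the mean of the 2 arrays of a group; the vertical axis is the log2 value and spans the same width in every panel. Dnajc24, Dnajb2 and Dnajb9 have every siGiver array below every siNTC array and Dnajc9, Dnajc18, Dnajc8 and Hspa2 every siGiver array above, while Dnajb5 is lowest in siGiver PBS.

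Among the class A and B J proteins, Dnajb2, which hands ubiquitin-tagged clients to the proteasome, differed most between the arms. It had 8.94 and 9.03 in siNTC PBS, 9.03 and 9.02 in siNTC Ang II, 8.53 and 8.63 in siGiver PBS, and 8.68 and 8.75 in siGiver Ang II. All siGiver arrays were below all siNTC arrays, by -0.41 ± 0.06 in PBS (1.32-fold lower, adjusted p = 0.00123) and -0.31 ± 0.06 with Ang II (1.24-fold lower, adjusted p = 0.00297). A far dimmer probe set of Dnajb2 did not pass in either treatment (0.10 and -0.04). Dnajb1 was higher in siGiver cells with Ang II by 0.30 ± 0.04 (1.23-fold, adjusted p = 0.00125), and its difference of 0.13 ± 0.04 in PBS did not pass (adjusted p = 0.0525).

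Probe sets of Dnaja1 disagreed between the arms. The brightest differed by 0.05 in PBS and 0.12 with Ang II, and neither passed, while the dimmer was higher in siGiver cells by 0.40 in PBS and 0.55 with Ang II, and both passed. Dnaja2, its relative, was higher with Ang II by 0.15 ± 0.04 (adjusted p = 0.0278), a call lost without any siNTC Ang II or siGiver Ang II array (adjusted p up to 0.135).

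Of the 8 cytosolic HSP70 and HSP110 members, 5 were higher in siGiver cells with Ang II and 0 were lower by limma, and 0 were lower at an unadjusted p under 0.05. Of all genes, 19.5% were higher and 24.8% lower in that comparison. In PBS, where 16% of all genes were higher and 19.1% lower, 0 were higher (1, Hspa2, at an unadjusted p under 0.05) and Hspa4 was lower. Hspa1a differed by 0.56 ± 0.06 with Ang II (1.47-fold, adjusted p = 0.000389) and by 0.03 ± 0.06 in PBS (adjusted p = 0.724). Hspa2, an HSP70 best known from germ cells, had 8.17 and 8.29 in siNTC PBS, 8.23 and 8.13 in siNTC Ang II, 8.39 and 8.62 in siGiver PBS, and 8.56 and 8.41 in siGiver Ang II. Its arms did not overlap, and the difference was 0.31 ± 0.09 with Ang II (1.24-fold, adjusted p = 0.0276) and 0.27 ± 0.09 in PBS (adjusted p = 0.0549). A dimmer probe set of Hspa2 was higher in both treatments, by 0.51 with Ang II and 0.45 in PBS.

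Hspa4l was higher with Ang II by 0.30 ± 0.09 (adjusted p = 0.0356) and Hsph1 by 0.19 ± 0.04 (adjusted p = 0.00923), neither of which passed in PBS. Hspa12a, a distant HSP70 relative close to the limit, was higher by 0.19 ± 0.07 (adjusted p = 0.0487), and it passed in 1 of the 8 fits that left out an array and in 3 of 7 other alternatives. It was lost without the filter, with every probe set on its own, with trended, robust moderation and with the replicate number as a block. Hspa4 was lower in PBS by -0.23 ± 0.08 (adjusted p = 0.047). This call was lost without the filter (0.0736), with cyclic loess (0.0594), with array medians subtracted (0.0535) and with every probe set on its own (0.0583). It was also lost with the replicate number as a block in the limma fit (0.052), and without any siNTC array or siGiver PBS array. The Hspa4l call with Ang II was lost with that block too (0.0526). Hspa2 missed with Ang II without siNTC Ang II replicate 1 (0.0524) or 2 (0.132) or siGiver Ang II replicate 1 (0.146). Hspa4l missed without the filter (0.0562), siNTC Ang II replicate 1 (0.195), either siGiver PBS array (0.0505) or siGiver Ang II replicate 1 (0.176), and Hsph1 without siNTC Ang II replicate 1 (0.0592) or siGiver Ang II replicate 2 (0.0522).

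Hspb1 was lower in siGiver cells in both treatments, by -0.26 ± 0.05 in PBS (1.20-fold lower, adjusted p = 0.00693) and -0.20 ± 0.05 with Ang II (1.15-fold lower, adjusted p = 0.0187). Within each treatment its siGiver arrays lay below its siNTC arrays, and the Ang II call was lost without any of the 4 Ang II arrays (0.051 to 0.0934). Hspb6 was lower with Ang II by -0.15 ± 0.05 (adjusted p = 0.0309), which did not pass after subtraction of array medians (0.0632), without the filter (0.052) or without any of the 4 Ang II arrays (0.0724 to 0.137). Hspb8, which works with the cochaperone Bag3, had -0.26 ± 0.10 in both treatments on its brightest probe set and passed in neither. Its dimmer probe set was lower by -0.49 in PBS and -0.37 with Ang II.

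On their brightest probe sets, mitochondrial members had 1 call between the arms, which is 11.1% higher in PBS. Of all genes, 16% were higher and 19.1% lower in PBS, and 19.5% were higher and 24.8% lower with Ang II. Dnajc30, a J protein of the mitochondrial inner membrane, had 7.74 and 7.79 in siNTC PBS and 8.04 and 7.99 in siGiver PBS, and was higher by 0.25 ± 0.05 (adjusted p = 0.00572). With Ang II it had 7.83 and 7.76 in siNTC cells and 7.87 and 7.86 in siGiver cells, and limma called 0 of the 9 mitochondrial members (2 at an unadjusted p under 0.05). A dimmer probe set of Hspa9 was higher in siGiver cells by 0.23 in PBS and 0.24 with Ang II and passed in both. The brightest of Hspa9 passed in neither (0.07 and 0.12). Its far dimmer ones did not pass either (0.39 and 0.29 in PBS, 0.28 and 0.04 with Ang II). Hspd1 differed by -0.02 in PBS and 0.02 with Ang II, and Hspe1 by 0.03 and -0.01. Hspbap1 and Hspbp1, which are named for the heat shock proteins they bind and are not chaperones of these families, passed in none of the 5 comparisons (differences between -0.14 and 0.21; at an unadjusted p under 0.05, Hspbp1 was higher with Ang II in siNTC cells and lower in siGiver cells under Ang II).

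**Figure D4:**
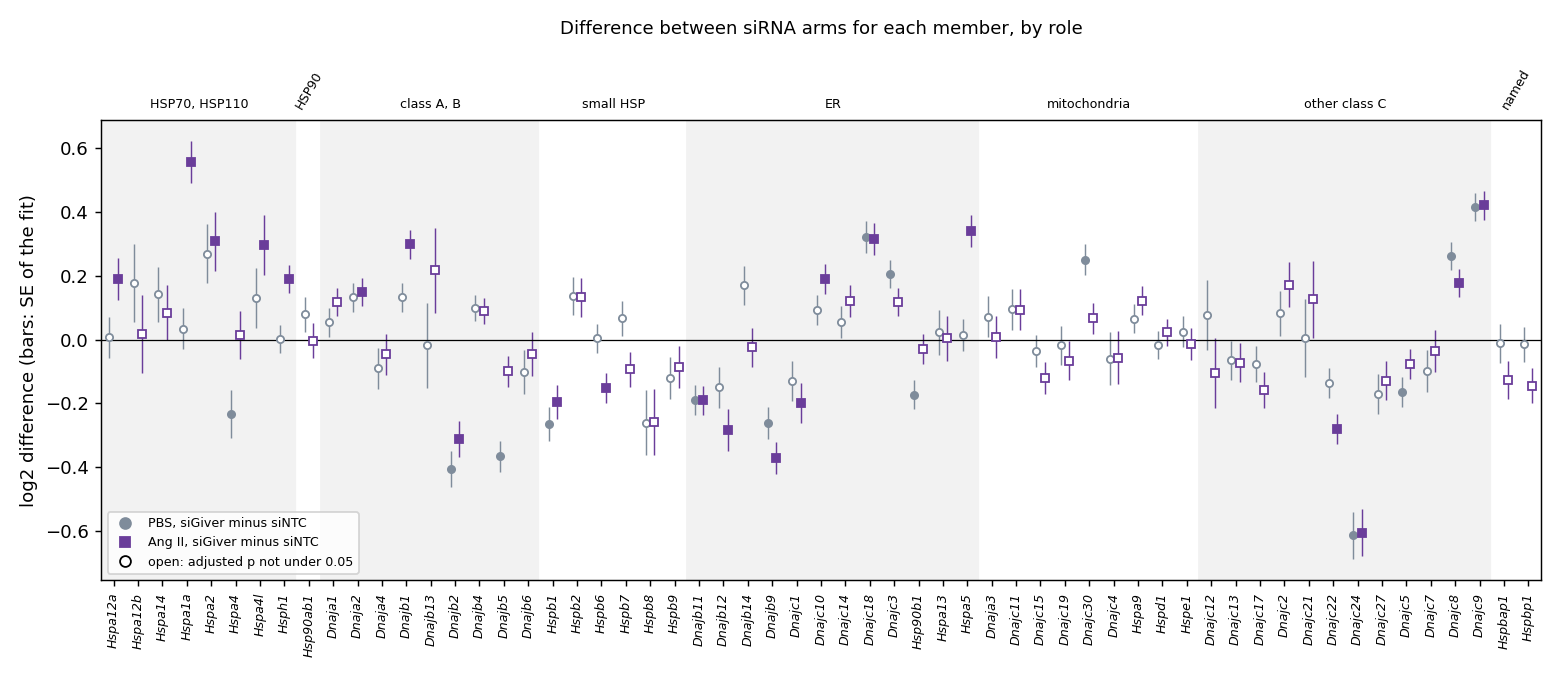
Points show the siGiver minus siNTC difference on the log2 scale for each of the 59 members, in PBS (grey circles) and with Ang II (purple squares), with bars of 1 SE of the fit, and filled points have an adjusted p under 0.05. Dnajc24 is lowest in both treatments (-0.61 and -0.60), Dnajc9 is highest in PBS (0.42), and Hspa1a (0.56) is highest with Ang II while its PBS point lies near 0 (0.03).

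Genes that regulate or assist these chaperones were taken from 4 further lists. Among 4 heat shock factors and regulators, limma called 0 in either Ang II comparison (0 at an unadjusted p under 0.05 in siNTC cells and 2 in siGiver cells). Of all genes, 3.97% rose and 2.17% fell with Ang II in siNTC cells, and 9.12% rose and 7.19% fell in siGiver cells. Hsf1, the main factor that switches on the heat shock genes, differed by 0.09 in siNTC cells and 0.13 in siGiver cells with Ang II. Hsf2, its relative, was higher in siGiver cells by 0.33 ± 0.05 in PBS (adjusted p = 0.00247) and by 0.18 ± 0.05 with Ang II (adjusted p = 0.0249). Hsbp1, which binds and restrains heat shock factors, was lower in PBS by -0.18 ± 0.05 (adjusted p = 0.0299).

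Of 24 cofactors of HSP70 and HSP90, limma called 0 with Ang II in siNTC cells (6 higher at an unadjusted p under 0.05), where 3.97% of all genes rose. The list median in siGiver cells was 0.05, against -0.03 over all genes. In siGiver cells 4 cofactors rose (16.7%, against 9.12% of all genes). These were Bag2, a regulator of HSP70 (0.43 ± 0.05, adjusted p = 0.00127), Fkbp5, an HSP90 partner in steroid receptor complexes (0.42 ± 0.09, adjusted p = 0.0174), Bag4 (0.23 ± 0.05, adjusted p = 0.0231), and Stip1, which links HSP70 to HSP90 (0.18 ± 0.05, adjusted p = 0.0403). Bag2 also had an interaction of 0.33 ± 0.07 (adjusted p = 0.0364).

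Between the arms, 6 of the 24 cofactors were higher (25%) and 3 lower (12.5%) in siGiver cells in each treatment. Among all genes the shares were 16% and 19.1% in PBS and 19.5% and 24.8% with Ang II. The list median was 0.0457 in PBS, against -0.0047 over all genes, and 0.0026 with Ang II, against -0.0259. Hyou1, an exchange factor of BiP, was higher by 0.45 ± 0.05 in PBS and 0.64 ± 0.05 with Ang II, while Sil1, another exchange factor of BiP, was lower by -0.29 ± 0.05 and -0.37 ± 0.05. Stub1, the ubiquitin ligase that takes clients from HSP70, was higher by 0.57 ± 0.04 and 0.54 ± 0.04. Ppid, an HSP90 partner, was lower by -0.36 ± 0.04 and -0.38 ± 0.04.

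Among 13 folding enzymes of the endoplasmic reticulum, limma called 0 with Ang II in siNTC cells (2 higher and 4 lower at an unadjusted p under 0.05) and 1 in siGiver cells, Manf (0.16 ± 0.04, adjusted p = 0.0381). This is 7.69% higher, below the 9.12% of all genes. In each treatment 3 were higher in siGiver cells (Canx, Creld2 and Sec63) and 3 lower (Ero1a, Ero1b and Sec61b), or 23.1% each way. Among all genes the shares were 16% and 19.1% in PBS and 19.5% and 24.8% with Ang II. The list median was -0.0483 in PBS and -0.0255 with Ang II, against -0.0047 and -0.0259 over all genes. Creld2, a stress-induced protein of this compartment, was higher by 0.26 ± 0.05 in PBS and 0.59 ± 0.05 with Ang II, with an interaction of 0.34 ± 0.07 (adjusted p = 0.0373). Ero1a, the oxidase that feeds disulfide formation, was lower by -0.55 ± 0.06 and -0.37 ± 0.06.

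Of 17 other chaperones of the cytosol and mitochondria tested, limma called 0 with Ang II in siNTC cells (4 higher at an unadjusted p under 0.05) and 1 in siGiver cells, Pfdn4, a prefoldin subunit (0.19 ± 0.05, adjusted p = 0.0324). This is 5.88% higher, below the 9.12% of all genes. In siGiver cells 4 were higher and 2 lower in PBS, and 6 were higher and 2 lower with Ang II, which is 23.5% and 11.8% in PBS and 35.3% and 11.8% with Ang II. Among all genes the shares were 16% and 19.1% in PBS and 19.5% and 24.8% with Ang II. The list median was 0.0563 in PBS and 0.0840 with Ang II, against -0.0047 and -0.0259 over all genes. Serpinh1, the collagen chaperone, was higher by 0.35 ± 0.04 and 0.48 ± 0.04, and Cct6a, a subunit of the cytosolic chaperonin, by 0.44 ± 0.06 and 0.53 ± 0.06.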

How the data were processed

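The deposited values are log2 values from Affymetrix rat arrays, made by the authors with RMA (background correction, quantile normalization and 1 value per probe set) and Partek, per the submitters' processing notes; the sources used here give no versions. Per the labels, RNA was labelled with biotin. Of 31099 probe sets, 20832 carried 1 symbol in the platform annotation, 436 several and 9831 none; 20764 of the 20832 matched a table of rat genes by identifier. The others were left unnamed.

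Probe sets with a mean under the 30th percentile (4.812 log2) were left out, and the brightest of each gene was kept. A limma model (version 3.58.1, R 4.3.3) gave each group its own mean over the 8 arrays (4 residual and 3.53 prior degrees of freedom), 5 comparisons were tested, and p-values were Benjamini-Hochberg adjusted over 11373 genes. Errors are standard errors of the fit. Arrays have no read depth, and their number limits the precision. The procedure was also run on simulated arrays with changes set only in the comparison of Ang II in siNTC cells. No result given here rests on that run.

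Named members were a fixed list of 12 measured chaperones and, per comparison and direction, up to 8 with the largest difference past adjusted p under 0.05; other members and their probe sets were added where the text describes a count, after their values were seen. Members and lists were chosen with earlier results of these data known. Alternatives were other filters, other uses of probe sets, cyclic loess, subtraction of array medians, trended robust moderation, the replicate number as a block, and leaving out each array.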

Additional observations from a re-analysis of the deposited data

Results flagged for a closer look

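The Ang II effect on Hspa1a differed between the siRNA arms: the siGiver effect exceeded the siNTC effect by 0.5231 on the log2 scale (SE 0.09, adjusted p = 0.0172 in the limma fit over all genes). Hspa1a was higher with Ang II in both arms, by 0.34 in siNTC cells and 0.87 in siGiver cells. For Hspa5 the same difference was 0.3258 (SE 0.07, adjusted p = 0.0392), from 0.12 in siNTC cells and 0.44 in siGiver cells. With 1 array left out, the Hspa1a interaction missed the threshold in most fits and that of Hspa5 in every fit. The Hspa5 interaction also missed in limma fits without the filter (adjusted p = 0.074) and with the replicate number as a block (0.067). The share of members with a higher interaction, 3.39%, was close to the 3.35% of all genes.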

How the results depend on the processing

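Limits are 2 arrays a group, no record of separate cultures, no scan dates used here, and 1 probe set per gene. The text names 30 members by its rule. Of their 2400 values under alternatives, 2220 kept their side of the threshold. A further 136 kept direction and lost the threshold (104 with an array left out), 44 gained it, and 0 calls reversed. Among values that passed neither in the main fit nor in the alternative, changes of direction were not counted. The median over all genes stayed within 0.0324 log2 of 0 in every setting.

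Counts of called members moved by over 1.5 times as follows, and the cause was not tested in any case. For Ang II in siNTC cells, 2 became 5 with a filter at the 50th percentile and 8 (7 higher, 1 lower) with trended, robust moderation. For Ang II in siGiver cells, 11 became 5 without a filter, where more genes are tested. The interaction count of 2 became 1 without a filter and 1 with every probe set on its own, where more features are tested, and 5 with trended, robust moderation. With single arrays left out, where fewer samples enter, counts ran from 0 to 2 for Ang II in siNTC cells, from 5 to 8 for Ang II in siGiver cells, from 10 to 14 between the arms in PBS, from 13 to 21 between the arms with Ang II, and from 0 to 1 for the interaction. Ang II in siNTC cells gave 0 without siNTC PBS replicate 1 or either siNTC Ang II array and 1 without siNTC PBS replicate 2. Ang II in siGiver cells gave 5 without siGiver Ang II replicate 2 or either siGiver PBS array, and 6 with siGiver Ang II replicate 1 left out or without either siNTC Ang II array. The arms with Ang II gave 13 without either siGiver Ang II array or siNTC Ang II replicate 2.

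The labels do not state whether a replicate number marks a shared culture. Correlations of deviations from the group mean, between same-numbered arrays of different groups, ran from -0.1738 to 0.0951. With 2 arrays a group, such weak correlations cannot show whether the samples were paired. With the replicate block, the counts were 2 and 6 for Ang II in siNTC and siGiver cells, 13 and 19 between the arms in PBS and with Ang II, and 1 for the interaction, which was Hspa1a.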
